A study of Mus musculus with 12 samples.

Results

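Transcripts of 7 mouse genes of cholesterol metabolism were followed in spleen: Ch25h, Hmgcs1, Sqle, Insig1, Srebf2, Abca1 and Abcg1. They were taken as the probe sets whose annotation gives only that symbol, which found all 7 of them, each with 1 probe set, among 19938 genes measured. The data come from 12 Affymetrix arrays hybridised with spleen RNA of C57BL/6 mice, with 4 biological replicates in each of 3 labelled groups. Mice of the first group are labelled Toll-like receptor (TLR)-deficient and had colon ascendens stent peritonitis (CASP), sepsis set off by gut content leaking from the ascending colon through a stent; their titles read Trifxmyd, after the TLR adaptors Trif and MyD88, with no allele named. The second group is wildtype with the same operation, and the third is wildtype with no treatment, titled as 0 h. Age, sex and the interval between operation and sampling are not given, and untreated TLR-deficient mice are not part of the design. Sample titles are numbered M5 to M16, of which M5 to M8 are labelled septic TLR-deficient, M9 to M12 septic wildtype and M13 to M16 untreated wildtype.

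Cells make cholesterol from acetyl-CoA through a chain of enzymes that includes HMG-CoA synthase (Hmgcs1), which forms the precursor of mevalonate, and squalene epoxidase (Sqle), which oxidises squalene ahead of ring closure. The chain is switched on by SREBP2, the product of Srebf2, which leaves the endoplasmic reticulum when sterols are low and is held there by Insig1 when they are high. Cholesterol 25-hydroxylase (Ch25h) turns cholesterol into 25-hydroxycholesterol, an oxysterol that restrains SREBP2 processing and is made by macrophages and stromal cells after exposure to interferon or TLR ligands. Abca1 and Abcg1 are membrane transporters that pass cholesterol out of the cell to apolipoprotein A-I and to high-density lipoprotein, and oxysterols raise their transcription through the liver X receptors.

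RefSeq places the genes, on GRCm38.p6, at chr19:34473783-34475148 (Ch25h), chr13:119690351-119708260 (Hmgcs1), chr15:59315092-59331193 (Sqle), chr5:28071412-28078662 (Insig1), chr15:82147269-82205379 (Srebf2), chr4:53030789-53159988 (Abca1) and chr17:31057694-31117984 (Abcg1). Its promoter sequences were at hand for 5 of the members: Ch25h, Hmgcs1, Insig1, Srebf2 and Abca1. Those of Hmgcs1 and Ch25h are shown because on M8, M9 and M11 Hmgcs1 was high and Ch25h low, as the values further on show. Each is the stretch of 250 bases before the annotated start, written 5′ to 3′ on the strand of the gene, with matches to the searched motifs in capitals.
Hmgcs1, chr13:119690101-119690350, plus strand: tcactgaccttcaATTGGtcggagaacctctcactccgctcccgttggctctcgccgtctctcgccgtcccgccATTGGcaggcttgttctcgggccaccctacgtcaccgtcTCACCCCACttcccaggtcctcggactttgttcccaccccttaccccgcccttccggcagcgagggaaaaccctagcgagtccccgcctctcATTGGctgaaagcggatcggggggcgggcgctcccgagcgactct
Ch25h, chr19:34475149-34475398, minus strand: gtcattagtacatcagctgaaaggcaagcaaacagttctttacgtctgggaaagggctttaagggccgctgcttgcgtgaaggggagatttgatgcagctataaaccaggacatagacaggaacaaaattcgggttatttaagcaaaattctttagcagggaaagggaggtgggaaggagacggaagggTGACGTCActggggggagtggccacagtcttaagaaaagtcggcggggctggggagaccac

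The Hmgcs1 stretch holds the sterol regulatory element TCACNCCAC, the kind of site SREBP2 binds, from base -137 relative to the start. It overlaps the shorter core CACCCCAC at -136, and the stretch also holds the CCAAT box on the opposite strand, which reads ATTGG, at -237, -176 and -45. Over both strands, TCACNCCAC occurs in 1.05% of the 32851 RefSeq promoter stretches of this length, CACCCCAC in 2.58% and CCAAT in 33.8%. The other 4 members searched held neither sterol motif in exact letters, and Insig1 and Srebf2 held 1 CCAAT box each. Near matches were not counted: the Srebf2 stretch reads tcaccccat, which differs from TCACNCCAC in its last base. Lack of an exact match therefore does not show that a site is absent. The Ch25h stretch has no match to the interferon-stimulated response element GAAANNGAA (in 7.13% of stretches) or to the NF-kappaB site GGGACTTTC (0.289%). It has the cAMP response element TGACGTCA, at -61, a motif found in 1.55% of stretches that was added to the search after the sequence had been seen.

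The arrays did not follow their labels, which bears on every result here. The array labelled septic wildtype replicate 2 (M10) stood apart, with Pearson's r to the others of 0.765 to 0.809 across genes, which are not independent replicates, against 0.956 to 0.991 among the remaining 11, and 5 of 12 arrays were most like an array of their own label. Log2 values on M10 also had a narrower spread across probe sets, with an SD of 1.52 against 2.11 to 2.24 on the other arrays. The part of this narrower scale in the low or high values of single genes on M10 was not tested. Xist, made by the inactive X chromosome, lay between 3.73 and 4.33 on M12 to M15 and at 8.94 or higher elsewhere, although M12 is labelled septic wildtype and M16 untreated; Eif2s3y, a Y-linked gene, was at 7.21 or more on M12 to M15 and at 4.50 or less elsewhere. Myd88 lay between 8.62 and 9.64 on the arrays labelled TLR-deficient and between 6.48 and 9.75 on the others. Ticam1, which encodes Trif, lay between 5.80 and 5.93 on the arrays labelled TLR-deficient and between 5.64 and 6.57 on the others. Whether either probe set covers the deleted part is not known. Spleen markers were read on all arrays: the mean log2 value over 5 of 6 B cell markers was 8.06 to 10.54, over 4 of 6 T cell markers 7.38 to 9.18 and over 9 of 9 red pulp macrophage markers 8.32 to 9.93. Whether titles or labels were shifted or exchanged between arrays was not tested, and if they were, the labelled differences below would not compare the named conditions. Group names below say only what the labels say.

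Ch25h had its lowest group mean on the arrays labelled septic wildtype. Its log2 values there were 5.21, 5.12, 5.24 and 5.61 on replicates 1 to 4. The untreated wildtype arrays read 6.16, 6.08, 6.14 and 7.48, and the septic TLR-deficient arrays 7.26, 6.59, 6.08 and 5.20. All 4 septic wildtype arrays thus lay below all 4 untreated ones, while the septic TLR-deficient arrays spanned nearly the whole range because replicate 4 (M8) sat with the septic wildtype arrays. Group means were 5.30 ± 0.22 for septic wildtype, 6.46 ± 0.68 for untreated wildtype and 6.28 ± 0.87 for septic TLR-deficient (SD, n = 4 each).

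As labelled, setting septic against untreated wildtype spleens asks how peritonitis alters expression when TLR signalling is intact. The Ch25h difference was -1.17 (SE 0.40, adjusted p = 0.439 in limma), so it did not pass. In that comparison 0 of 19938 genes (0%) passed at an adjusted p under 0.05 in limma, 1756 (8.81%) had an unadjusted p under 0.05, and 2 of the 7 members did, Ch25h and Abca1. In 546 genes (2.74%) every septic wildtype array lay below every untreated one, and 1 of the 7 members, Ch25h, was among them. Counting either direction, the arrays did not overlap in 6.42% of genes there, in 3.80% between the septic groups and in 3.40% between septic TLR-deficient and untreated spleens, and in the last pair of comparisons 0 of the 7 members stood apart. Setting septic TLR-deficient against septic wildtype spleens asks which expression differs with TLR signalling during peritonitis: the Ch25h difference was 0.99 (SE 0.40, adjusted p = 0.590 in limma), with 0 genes (0%) called, 1325 (6.65%) at an unadjusted p under 0.05, and Ch25h as the 1 member of 7 below it. Septic TLR-deficient and untreated wildtype spleens differ in genotype and treatment together; Ch25h differed there by -0.18 (SE 0.40, adjusted p = 1 in limma), with 0 genes (0%) called, 375 (1.88%) at an unadjusted p under 0.05 and 0 of 7 members below it. These comparisons share arrays with each other, so their values are not independent. They also set unlike mixes of sex-linked transcripts against each other. Xist was low on M12 of the septic wildtype arrays, on M13 to M15 of the untreated arrays and on no septic TLR-deficient array. The part of that imbalance in the differences was not tested.

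**Figure D1:**
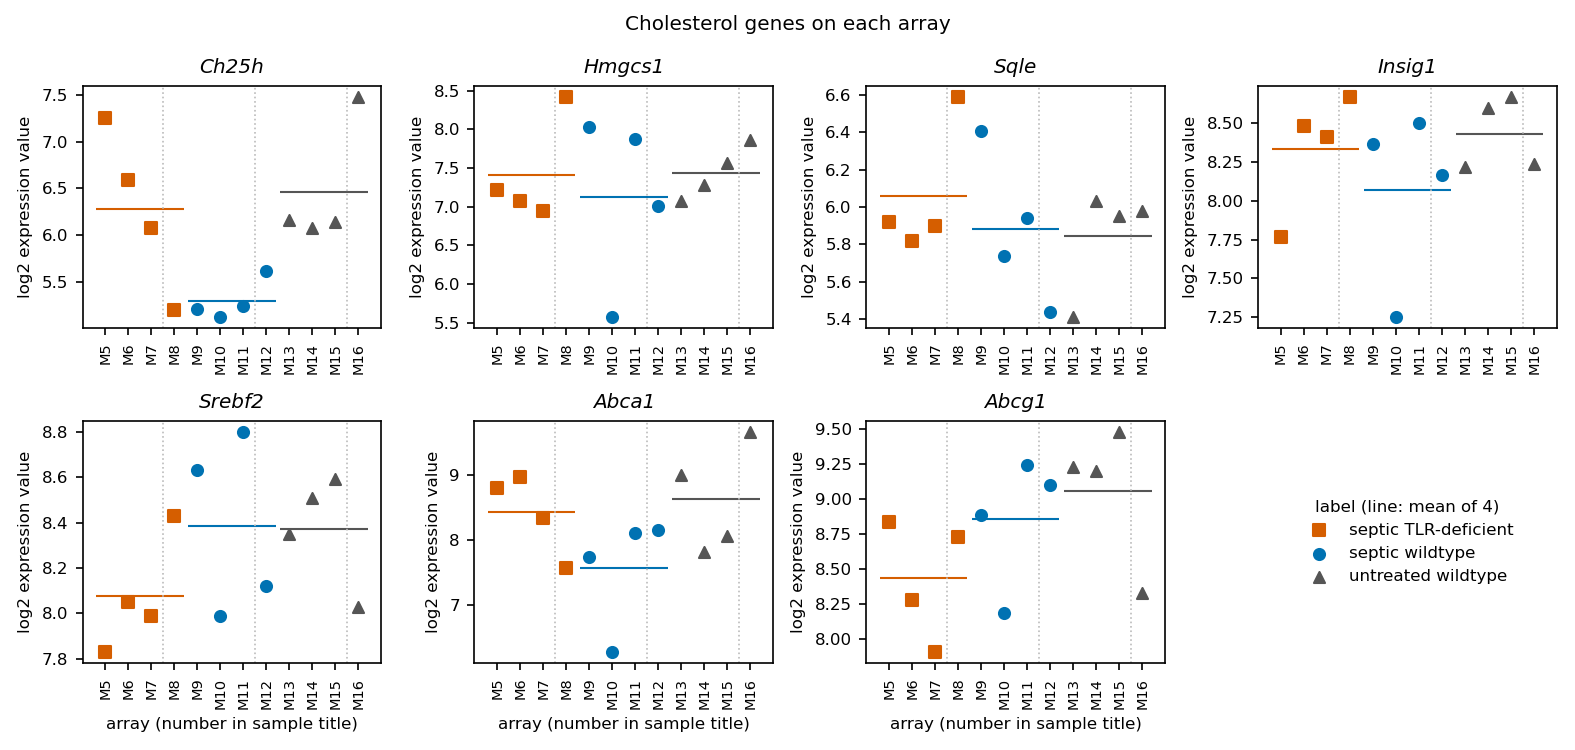
Log2 expression value (vertical axis) of the 7 genes on each of the 12 arrays (horizontal axis, by the number in the sample title); colour and marker give the label, horizontal lines the mean of the 4 arrays of a label, and dotted lines separate M5 to M7, M8 to M11, M12 to M15 and M16. Ch25h is lowest, between 5.12 and 5.24, on M8 to M11 and highest, at 7.48, on M16.

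Hmgcs1 split the septic wildtype arrays. Its log2 values were 8.03, 5.57, 7.88 and 7.01 on septic wildtype replicates 1 to 4, and 7.07, 7.28, 7.56 and 7.86 on the untreated arrays. The septic TLR-deficient arrays read 7.22, 7.07, 6.95 and 8.42. The highest value of all was on M8 and the lowest on M10, so every pair of labelled groups overlapped. Group means were 7.12 ± 1.13 for septic wildtype, 7.44 ± 0.34 for untreated wildtype and 7.41 ± 0.68 for septic TLR-deficient (SD, n = 4 each). The difference between septic and untreated wildtype was -0.32 (SE 0.48, adjusted p = 0.667 in limma), and without septic wildtype replicate 2 it was 0.20 (SE 0.36, adjusted p = 0.915 in limma). With septic TLR-deficient set against septic wildtype it was 0.29 (SE 0.48), and -0.23 (SE 0.36) without that array. Leaving out 1 array thus turned the sign in both comparisons. In the latter the sign turned in 2 of the fits that left out 1 array in turn.

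Sqle, which acts further down the same chain, was also highest on M8 and M9, with an SD over 12 arrays of 0.34 against 0.73 for Hmgcs1. It read 5.92, 5.82, 5.90 and 6.59 on septic TLR-deficient replicates 1 to 4. The septic wildtype arrays read 6.41, 5.74, 5.94 and 5.44, and the untreated ones 5.41, 6.03, 5.95 and 5.98. M8 and M9 were the highest and M12 and M13 the lowest arrays, again across labels. The means were 6.06 ± 0.36, 5.88 ± 0.41 and 5.84 ± 0.29 (SD, n = 4 each) for the TLR-deficient, septic wildtype and untreated labels. No difference exceeded 0.21 in size, with SE 0.25 in each comparison.

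Srebf2, which encodes the transcription factor of the chain, lay within a narrow band. The septic TLR-deficient arrays read 7.83, 8.05, 7.99 and 8.43, the septic wildtype arrays 8.63, 7.99, 8.80 and 8.12, and the untreated arrays 8.35, 8.51, 8.59 and 8.03. Low values were on M5, M6, M7, M10, M12 and M16, which carry all 3 labels. The mean was 8.08 ± 0.25 for septic TLR-deficient, 8.38 ± 0.39 for septic wildtype and 8.37 ± 0.25 for untreated wildtype (SD, n = 4 each). The difference of septic TLR-deficient from septic wildtype was -0.31 (SE 0.22, adjusted p = 0.590 in limma), and that of septic from untreated wildtype 0.01 (SE 0.22).

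Insig1, the anchor that keeps SREBP2 inactive and is itself an SREBP target, read 7.77, 8.48, 8.41 and 8.67 on the septic TLR-deficient arrays. Values were 8.37, 7.25, 8.50 and 8.17 on the septic wildtype arrays and 8.22, 8.60, 8.67 and 8.24 on the untreated ones. Apart from M10 and M5, which were the lowest, the arrays lay between 8.17 and 8.67. Its means were 8.33 ± 0.39, 8.07 ± 0.57 and 8.43 ± 0.23 (SD, n = 4 each) for the TLR-deficient, septic wildtype and untreated labels. The difference between septic and untreated wildtype was -0.36 (SE 0.28), and -0.09 (SE 0.21) without septic wildtype replicate 2.

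The 2 exporters did not share a pattern. Abca1 read 8.81, 8.98, 8.35 and 7.58 on the septic TLR-deficient arrays, 7.75, 6.28, 8.11 and 8.16 on the septic wildtype arrays and 9.01, 7.82, 8.07 and 9.67 on the untreated arrays. Its highest value was on M16 and its lowest on M10, and all labelled groups overlapped. Group means were 8.43 ± 0.63, 7.58 ± 0.88 and 8.64 ± 0.86 (SD, n = 4 each) for the TLR-deficient, septic wildtype and untreated labels. The difference between septic and untreated wildtype was -1.06 (SE 0.49, adjusted p = 0.439 in limma), and -0.63 (SE 0.43, adjusted p = 0.801 in limma) without septic wildtype replicate 2. The septic TLR-deficient mean exceeded the septic wildtype mean by 0.85 (SE 0.49), and 0.42 (SE 0.43) without that array.

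Abcg1 read 8.84, 8.28, 7.91 and 8.73 on the septic TLR-deficient arrays. The septic wildtype arrays read 8.89, 8.19, 9.24 and 9.10, and the untreated arrays 9.23, 9.20, 9.48 and 8.33. M16, where Abca1 was highest, was among the lowest arrays for Abcg1, with M6, M7 and M10. The means were 8.44 ± 0.43, 8.85 ± 0.46 and 9.06 ± 0.50 (SD, n = 4 each) for the TLR-deficient, septic wildtype and untreated labels. Septic TLR-deficient arrays differed from untreated ones by -0.62 (SE 0.31, adjusted p = 1 in limma) and from septic wildtype by -0.42 (SE 0.31, adjusted p = 0.590 in limma).

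**Figure D2:**
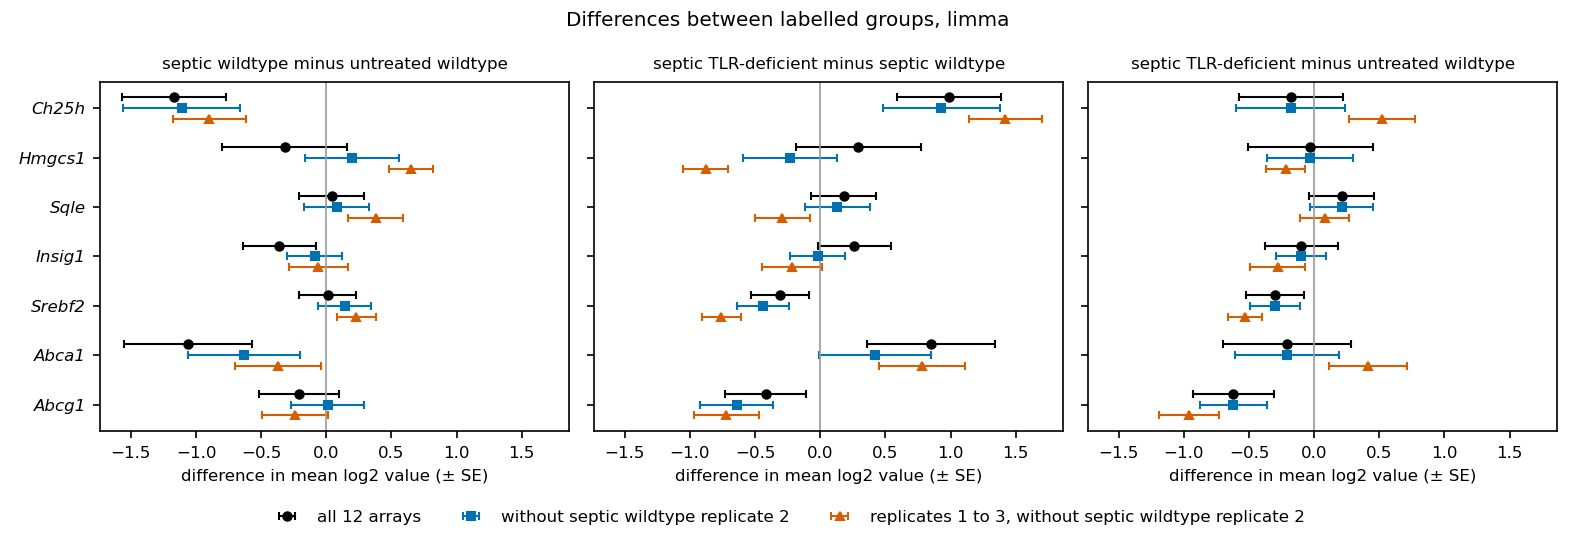
Difference in mean log2 value between labelled groups (horizontal axis, with SE as bars) for the 7 genes in the 3 comparisons, fitted with limma over all 12 arrays, without septic wildtype replicate 2, and over replicates 1 to 3 without that array. The Ch25h difference between septic and untreated wildtype was -1.17, -1.11 and -0.90 in these fits, while that of Hmgcs1 was -0.32, 0.20 and 0.65.

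Values were also laid out by runs of title numbers, M5 to M7 with M16, M8 to M11, and M12 to M15. These runs cross the labels and were proposed with results of these data known, so their ranges are a description with no test. Ch25h lay between 5.12 and 5.24 on M8 to M11, between 5.61 and 6.16 on M12 to M15 and between 6.08 and 7.48 on M5 to M7 with M16. The first of these ranges did not touch the others: M8 to M11 lay below all other arrays in Ch25h, as in 423 of all genes (2.12%). On M8 to M11 Ch25h also lay below the median probe set of the same array, which was 5.31, 5.4, 5.54 and 5.29. Whether Ch25h was near background there was not tested. Of 9 interferon-stimulated genes measured, 8 also lay lower on M8 to M11 than on all other arrays. The exception was Rsad2, an antiviral enzyme, at 9.67 on M8 and 9.57 on M13. The mean log2 value over the 9 genes, among which Ifit1 and Cxcl10, was 6.39 to 7.86 on M8 to M11 and 8.78 to 10.36 on the other arrays, and their part in the Ch25h values was not tested. M12 had Ch25h at only 5.61 with the 9 genes at 10.14, and M7 had 6.08 with them at 8.78. The monocyte and inflammatory macrophage markers, of which 4 of 6 were measured, averaged 7.40 to 8.14 on M8 to M11 and 8.35 to 8.81 elsewhere, but its 4 genes did not move together. Cd14, a co-receptor for bacterial lipopolysaccharide, lay at 5.71 to 6.75 on M8 to M11, at 6.58 to 8.41 on M12 to M15 and at 9.65 to 11.26 on M5 to M7 with M16. Ccr2, the chemokine receptor of inflammatory monocytes, went the other way between the first and the last of these runs, at 5.78 to 7.43 against 4.57 to 5.03, and Lyz2, or lysozyme, overlapped across all runs. Fcgr1 lay at 6.38 to 7.35 on M8 to M11 and overlapped with M5 to M7 and M16. In whole spleen, fewer cells of a type and less RNA per cell cannot be told apart. M12 to M15 are also the arrays with low Xist, so that run and the difference in sex-linked transcripts cannot be told apart.

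**Figure D3:**
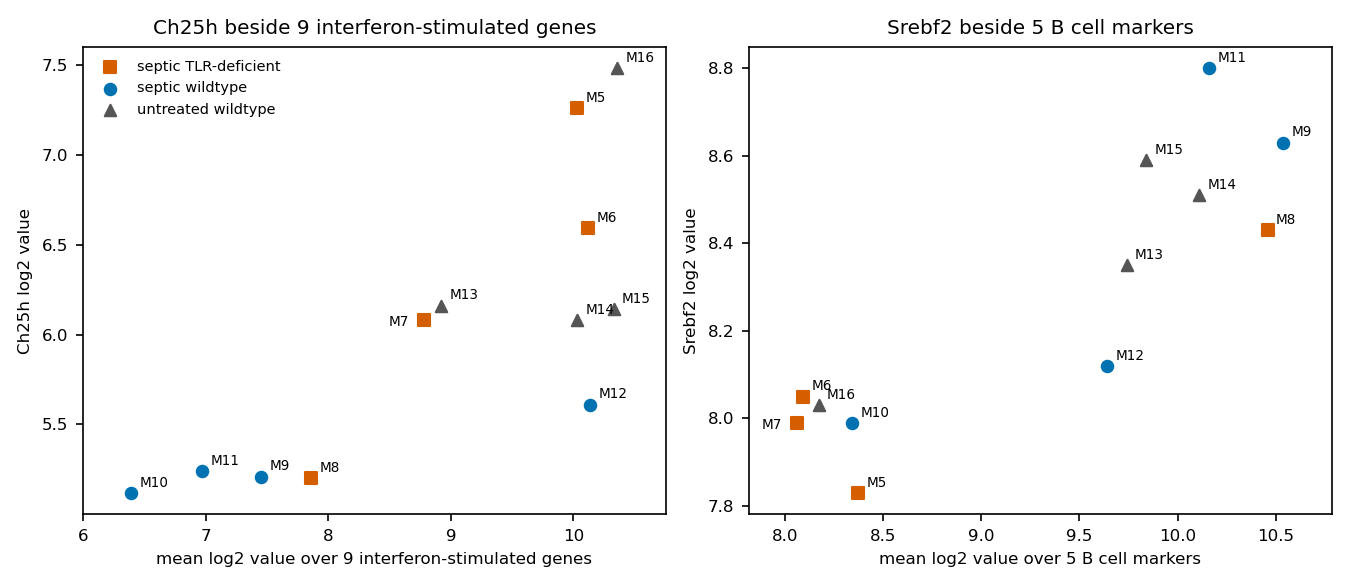
Left, Ch25h log2 value of each array against the mean log2 value over 9 interferon-stimulated genes; right, Srebf2 against the mean over 5 B cell markers, with 1 point per array, colour and marker for the label and the title number beside it. M8 to M11 lie together at Ch25h values of 5.12 to 5.24, and M5, M6, M7, M10 and M16 lie together at B cell means of 8.06 to 8.37.

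Abca1 was between 8.35 and 9.67 on M5 to M7 with M16 and between 6.28 and 8.11 on M8 to M11. These ranges did not overlap for Abca1 and Ch25h, that is for 2 of 7 members and 1041 of all genes (5.22%). The run M12 to M15 bridged them for Abca1, at 7.82 to 9.01. Srebf2 and Abcg1 went the other way: on M12 to M15 they lay at 8.12 to 8.59 and 9.10 to 9.48, above the 7.83 to 8.05 and 7.91 to 8.84 of M5 to M7 with M16, as did 1416 of all genes (7.10%). The B cell markers averaged 9.64 to 10.11 on M12 to M15 and 8.06 to 8.37 on M5 to M7 with M16. Dendritic cell markers averaged 6.89 to 7.49 against 5.72 to 5.97 on the same runs, and T cell markers 8.09 to 9.18 against 7.53 to 7.86. Within these lists Flt3, Zbtb46, Cd3e and Cd4 overlapped. Red pulp macrophage markers averaged 9.32 to 9.56 against 8.65 to 9.15, but did not move together. Vcam1, Cd163, Slc40a1, C1qa and C1qc lay higher on M12 to M15, and Hmox1 and C1qb overlapped. Adgre1 and Spic went the other way, at 5.46 to 6.02 and 8.38 to 9.12 against 7.41 to 8.99 and 9.24 to 10.11. Means over monocyte, neutrophil, dividing cell and stromal markers overlapped between these runs. The part of any cell type in the Srebf2 and Abcg1 values was not tested. Hmgcs1 read 7.88 to 8.42 on M8, M9 and M11 and between 6.95 and 7.86 on M5 to M7 and M12 to M16. Without M10, then, M8 to M11 lay above all other arrays in Hmgcs1, as in 661 of all genes (3.32%). With M10, at 5.57, the run spanned the whole range.

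Genes around the members were read from lists of the pathway. Among cholesterol synthesis enzymes, 17 of 20 listed were measured, and 0 passed in any comparison. On septic relative to untreated wildtype arrays 5 had higher and 12 lower means, with a median difference of -0.04 against 0.07 over all genes. Idi1 (isopentenyl diphosphate isomerase) and Pmvk (phosphomevalonate kinase) had the lowest differences, -0.47 and -0.42, and Fdps (farnesyl diphosphate synthase) and Mvk (mevalonate kinase) the highest, 0.33 and 0.31. Without septic wildtype replicate 2 the split was 11 higher and 6 lower, and the difference was 0.02 for Idi1, -0.29 for Pmvk, 0.21 for Fdps and 0.27 for Mvk. Set against septic wildtype, the septic TLR-deficient arrays had higher means for 9 and lower means for 8 of them, with a median of 0.03 against -0.06 over all genes, and 6 higher and 11 lower without that array. On M8 the enzymes had a mean log2 value of 6.97 and on M10 of 5.98, the highest and lowest of the 12 arrays. Msmo1, a sterol demethylation enzyme, read 9.26 on M8, 8.98 on M9, 7.22 on M10 and 8.30 on M11, and Idi1 read 8.25, 7.68, 5.09 and 7.19 on the same arrays. Without M10, the M8 to M11 values lay above all those of M5 to M7 with M16 in 8 of 17 enzymes (12.5% of all genes), among which Hmgcs1, Mvk, Fdps and Msmo1, and above those of M12 to M15 in 5 of 17 (7.87% of all genes). With all 12 arrays these counts were 4 of 17 (4.98%) and 2 of 17 (4.38%), with Mvk and Fdps in both and Hmgcs1 in neither. Pmvk was high on other arrays, at 6.86 to 7.32 on M5 to M7 with M16 and at 6.70 or less on all other arrays.

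**Figure D4:**
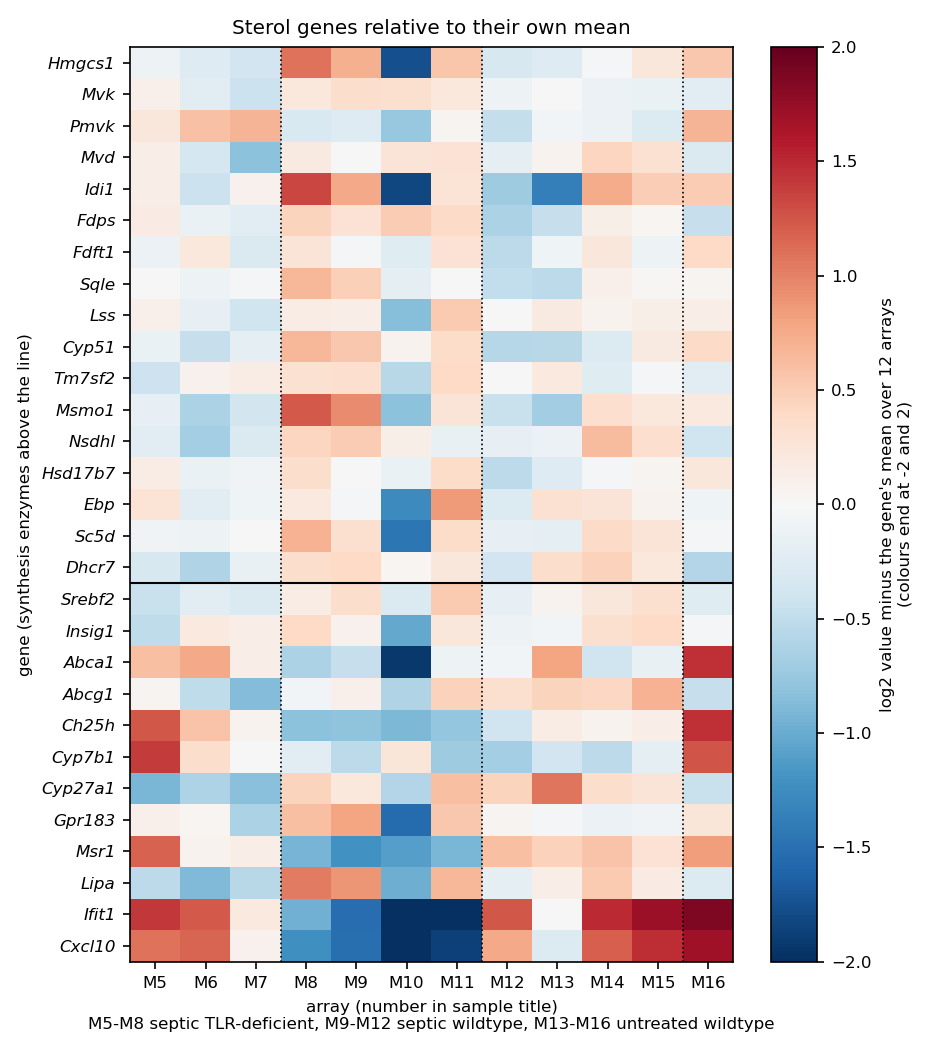
Log2 value minus the gene's own mean over 12 arrays (colour) for the 17 measured synthesis enzymes, above the line, and 12 other genes, below it, on each array (horizontal axis, dotted lines as in the plot of values by array). Of the 17 enzymes most are above their mean on M8, M9 and M11, M10 is far below it for Hmgcs1 and Idi1, and Ch25h and Cyp7b1 are highest on M5 and M16.

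Genes of oxysterol synthesis, breakdown and sensing were all measured, 11 of 11, and 0 passed. Between septic and untreated wildtype 3 had higher and 8 lower means, with a median of -0.14 against 0.07 over all genes. Between septic TLR-deficient and septic wildtype 8 had higher and 3 lower means, with a median of 0.23 against -0.06. Without septic wildtype replicate 2 these were 4 higher and 7 lower with a median of -0.05, and 5 higher and 6 lower with a median of -0.01. The medians over all genes were then 0.02 and -0.01. Cyp7b1, which breaks down 25-hydroxycholesterol and takes part in making a ligand of the guidance receptor Gpr183, read 7.09, 6.04 and 5.69 on M5 to M7 and 6.94 on M16. Its other values lay between 4.97 and 5.93, the latter on M10. The difference of septic TLR-deficient from septic wildtype was 0.81 for Cyp7b1 (SE 0.42, adjusted p = 0.590 in limma) and -0.65 for Cyp27a1, the mitochondrial sterol 27-hydroxylase, and 1.03 and -0.90 without septic wildtype replicate 2. Gpr183 itself, the oxysterol receptor that positions B cells and dendritic cells, was highest on M8, M9 and M11, at 8.24, 8.43 and 8.18, and lowest on M10, at 6.09.

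Over all genes, 10978 had higher and 8960 lower means on septic than on untreated wildtype arrays, with a median of 0.07. Without septic wildtype replicate 2 the split was 11023 higher and 8915 lower, with a median of 0.02. Of the SREBP2 control list 11 of 16 genes were measured, with 2 higher and 9 lower means on septic than on untreated wildtype arrays and a median of -0.19. That turned to 7 higher and 4 lower, with a median of 0.07, without septic wildtype replicate 2. The liver X receptor and export list had 13 of 16 measured, 1 higher and 12 lower with a median of -0.26, and 6 higher and 7 lower with a median of -0.01 without that array. Cholesterol uptake, storage and lysosomal handling genes, 13 of 15 measured, had 1 higher and 12 lower means on septic than on untreated wildtype arrays, with a median of -0.64. The split was the same without septic wildtype replicate 2, with a median of -0.27, and 0 genes passed in either fit. Plin2, which coats lipid droplets, had the lowest difference at -1.35 (SE 0.50), followed by Msr1, a scavenger receptor of macrophages, at -1.19 (SE 0.44). Without septic wildtype replicate 2 Plin2 was at -0.78 (SE 0.35) and Msr1 at -1.05 (SE 0.48), so their order turned. Msr1 read 4.97 to 5.27 on M8 to M11 and 6.26 to 7.37 on all other arrays. Lipa, the lysosomal acid lipase that frees cholesterol from its esters, read 9.91, 9.75 and 9.54 on M8, M9 and M11, and 7.90 on M10.

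For the 3 members that varied most, the genes with the most similar values were found by the root mean square difference of centred log2 values over 12 arrays. Nearest to Ch25h were Atp8b1 (0.14), a phospholipid flippase, Mmp14 (0.22), a membrane-bound matrix protease, and Jun (0.24), a subunit of AP-1, where Ch25h itself deviated from its mean by 0.76. Atp8b1 and Mmp14 stayed nearest without septic wildtype replicate 2, at 0.14 and 0.17. Nearest to Hmgcs1 were Sesn3 (0.25), Lims1 (0.25) and Pja2 (0.26). Over the 11 arrays without septic wildtype replicate 2 the nearest gene to Hmgcs1 was Cyp51 (0.15), the lanosterol demethylase of the same chain, followed by Acta2 (0.17) and Prss23 (0.18). Nearest to Abca1 were Itga9 (0.25), Rasip1 (0.26) and Rnf149 (0.28), and over the 11 arrays Rapgef5 (0.19), Nos3 (0.22) and Galnt18 (0.23).

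Leaving out replicate 4 of every label together with septic wildtype replicate 2 kept 8 arrays. This fit was chosen after seeing the data and leaves out arrays that stand apart from their label, so it favours calls. The arrays kept are M5 to M7, M9 with M11, and M13 to M15, so each label lies within 1 of the runs above. The fit thus cannot test the labels apart from those runs, and no conclusion on the labels is drawn from it. M13 to M15 also have low Xist and the other arrays kept have high Xist. Both comparisons with untreated arrays in this fit therefore cannot be told apart from sex-linked transcripts. For septic TLR-deficient against septic wildtype, 1002 of 19938 genes (5.03%) then passed in limma, and 3 of the 7 members did. Ch25h was higher by 1.42 on the log2 scale (SE 0.28, adjusted p = 0.0207 in limma) in the septic TLR-deficient arrays. Hmgcs1 was lower by 0.88 (SE 0.17, adjusted p = 0.0210 in limma) and Srebf2 was lower by 0.76 (SE 0.15, adjusted p = 0.0186 in limma). Only 2 septic wildtype arrays remained, M9 and M11. Of the 17 measured synthesis enzymes 1 had a higher and 16 lower means in that fit, with a median of -0.47 against -0.03 over all genes, and 1 passed, Hmgcs1. For septic against untreated wildtype 19 genes (0.0953%) passed in the same fit, and 0 of the 7 members; between septic TLR-deficient and untreated wildtype 675 (3.39%) passed and again 0 members, with Abcg1 at -0.96 (SE 0.23, adjusted p = 0.0526 in limma).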

How the data were processed

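Per the labels, total RNA of each spleen was converted to cDNA, fragmented and biotinylated with Affymetrix kits. What the authors deposited is 1 log2 value for every probe set and array; the submitters' processing notes name RMA and Affymetrix Expression Console, and versions are not given in the sources used here. RMA corrects background, equalises the arrays' distributions and summarises probes, so levels of different genes were not compared. Ch25h was only set beside the median of each array. The deposited values of M10 still had a narrower distribution, with an SD of 1.52 against 2.11 to 2.24 on the other arrays. Detection calls were not used here. The labels' extraction text also speaks of Shh mutants, which no other label names. Array number, not depth, limits the precision, and p-values measure the spread between the 4 samples of a label.

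Of 35557 probe sets, 21789 are annotated with 1 symbol, 1621 with several and 12147 with none. The probe set with the highest mean stood for a gene, with no filter. Comparisons were fitted with limma 3.58.1 in R 4.3.3 over all 12 arrays, 1 mean per label, two-sided, with Benjamini-Hochberg adjustment over 19938 genes and a threshold of 0.05; the procedure was tested on simulated data. Non-overlap means that every array of a label lies beyond every array of another. Members and lists were chosen with earlier results of these data known. The members are named always, and list genes by the highest and lowest differences; others, such as Msmo1, Cyp7b1, Gpr183 and Lipa, were chosen after their values were seen. For the 3 members with the largest SD, the 3 nearest genes are named. Alternatives were other normalizations, a filter on dim genes, another choice of probe set, arrays or variance prior, a stricter threshold, array weights, the replicate block and leaving out arrays in turn. Sequences and coordinates come from RefSeq on GRCm38.p6; the build behind the probe annotation is not given in the sources used here. Motifs were searched on both strands as exact letters. Plots were made in matplotlib 3.10.9.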

Additional observations from a re-analysis of the deposited data

Results flagged for a closer look

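In 3 of 21 sets of 4 values (7 genes in 3 labelled groups), 1 array lay so far from the other 3 that its gap exceeded Dixon's critical value for 4 samples, which chance does in about 1 of 20 such sets. Ch25h was at 7.48 on untreated wildtype replicate 4 (M16) and at 6.08 to 6.16 on the other untreated arrays. Sqle was at 6.59 on septic TLR-deficient replicate 4 (M8) against 5.82 to 5.92 on the others, and at 5.41 on untreated wildtype replicate 1 (M13) against 5.95 to 6.03. M8, M13 and M16 were each most like an array of another label.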

How the results depend on the processing

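All differences are log2 and fitted with limma. The number of genes passing stayed at 0 in each comparison when any 1 array was left out. Between septic and untreated wildtype it was 1 with array weights, 9 with replicates 1 to 3 and 19 with replicates 1 to 3 and no septic wildtype replicate 2. The latter 2 settings, added after seeing the data, gave 141 and 1002 between septic TLR-deficient and septic wildtype. Between septic TLR-deficient and untreated wildtype they gave 33 and 675. In both settings each label lies within 1 run of title numbers, so they cannot test the labels apart from the runs. Of 231 member values under 11 settings other than leaving out 1 array, 22 changed sign, and the cause was not tested. In septic against untreated wildtype these were Insig1 at 0.07 and Abcg1 at 0.23 after a further quantile normalization, Hmgcs1 at 0.35 with array weights and 0.65 in the 8 arrays, and Srebf2 at -0.01 with replicates 1 to 3. Between septic TLR-deficient and septic wildtype, Insig1 was -0.08 after quantile normalization; Hmgcs1, Sqle and Insig1 were -0.42, -0.07 and -0.07 with array weights and -0.88, -0.29 and -0.22 in the 8 arrays; Hmgcs1 and Sqle were -0.08 and -0.15 with replicates 1 to 3. Between septic TLR-deficient and untreated wildtype, Hmgcs1 was 0.07 after quantile normalization and 0.00 after centring on medians; Ch25h and Abca1 were 0.16 and 0.25 with array weights and 0.52 and 0.41 both with replicates 1 to 3 and in the 8 arrays.

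Leaving out 1 array at a time changed the sign in 21 of 252 values. Where the array left out was of the label not compared, the difference was unchanged by design and no sign could turn. For septic against untreated wildtype the ranges were -1.29 to -0.83 for Ch25h, -1.34 to -0.63 for Abca1, -0.62 to 0.20 for Hmgcs1, -0.50 to -0.09 for Insig1, -0.45 to 0.01 for Abcg1, -0.14 to 0.18 for Sqle and -0.13 to 0.14 for Srebf2. For septic TLR-deficient against septic wildtype they were 0.66 to 1.35 for Ch25h, 0.42 to 1.13 for Abca1, -0.23 to 0.59 for Hmgcs1, -0.02 to 0.45 for Insig1, -0.64 to -0.24 for Abcg1, 0.00 to 0.35 for Sqle and -0.44 to -0.17 for Srebf2. For septic TLR-deficient against untreated wildtype they were -0.51 to 0.18 for Ch25h, -0.49 to 0.13 for Abca1, -0.36 to 0.13 for Hmgcs1, -0.21 to 0.09 for Insig1, -0.86 to -0.44 for Abcg1, 0.04 to 0.29 for Sqle and -0.42 to -0.22 for Srebf2.

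With the replicate number as a block, 0 genes passed in each of the 3 comparisons in limma (lowest adjusted p = 0.473, 0.626 and 1; 1338, 1006 and 308 genes at an unadjusted p under 0.05), so the block changed no call. Deviations of same-numbered arrays correlated at -0.54 to 0.14, so the numbers were not taken to pair the arrays.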

Other observations

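Genes of fatty acid synthesis, which SREBP1 drives, were measured for 10 of 10 listed, and 0 passed in limma in any comparison. Between septic and untreated wildtype 9 had lower means and 1 a higher mean, with a median difference of -0.45 (8 lower, 2 higher and a median of -0.18 without septic wildtype replicate 2). Over all genes the median was 0.07, and 0.02 without that array. Scd1 and Acly had the lowest differences, -0.88 and -0.72, which were -0.15 and -0.23 without that array. Scd2, a desaturase, read 8.91, 8.68 and 8.67 on M8, M9 and M11, 6.65 on M10 and 7.32 to 8.34 on the other arrays.

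Nr1h3, which encodes a liver X receptor, read 8.99 on M5 but 7.45, 6.82 and 6.82 on M6, M7 and M16. On M12 to M15 it lay between 8.50 and 9.03, and on M8, M9 and M11 between 8.29 and 8.41. Markers of pancreatic acinar cells, a neighbouring tissue, averaged 9.17 on M12, 10.25 on M14 and 7.36 on M16, and 4.38 to 5.84 on the other arrays, over 5 of 6 listed genes; their part in the values of the sterol genes was not tested.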
